A study of Rattus norvegicus with 3 samples.

Results

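The enzymes of gluconeogenesis, the pathway that makes new glucose from lactate, glutamine and glycerol, were examined in proximal tubules of the rat kidney. Members were the probe sets annotated to exactly 1 gene symbol, that symbol being Pck1, Pck2, Pc, Fbp1, Fbp2, G6pc1 or Slc37a4. The rule found 7 probe sets for 6 of the 7 genes, out of 14217 named genes on the array. No probe set named G6pc1 alone. The rule itself used no measured value, but members were chosen with earlier results of these data known.

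The tubules came from male Sprague-Dawley rats 7 to 8 weeks old, in 3 preparations with 1 Affymetrix array each, which formed 1 group with no control group. Every rat had been given an intraperitoneal dose of 250 units of heparin 30 min ahead of decapitation. Per the labels, the kidneys were perfused with cold saline and with collagenase at 2 mg/ml. The cortex was digested for 20 min, and tubules were separated in 42.5% Percoll. The sources used here do not say whether the preparations came from different animals or from pooled ones, so the spread between arrays may be partly technical. No comparison of conditions was possible and no test was run. Probe sets differ in affinity, so the levels given for different genes are not an order of abundance.

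Gluconeogenesis runs mostly through the enzymes of glycolysis in reverse and uses separate enzymes where glycolysis cannot be reversed. Pyruvate carboxylase makes oxaloacetate from pyruvate in mitochondria, phosphoenolpyruvate carboxykinase turns oxaloacetate into phosphoenolpyruvate, fructose bisphosphatase removes a phosphate from fructose bisphosphate, and glucose 6-phosphatase frees glucose in the endoplasmic reticulum. Liver and kidney cortex are the organs known to release glucose in this way. In the kidney the pathway belongs to the proximal tubule, where it is tied to glutamine use and ammonia production, and acidosis is known to induce Pck1 there.

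For a view of the genes themselves, the 250 bases before the annotated start were taken from RefSeq (build GRCr8) for both carboxykinase genes. Their enzymes carry out the same reaction in 2 compartments, and their probe sets differed in pattern between arrays. The 2 Pck2 probe sets also differed from each other, being highest, once centred, on arrays 2 and 3. A link between these windows and the array patterns was not tested. Capitals mark matches to motifs searched on both strands. The motifs were a cAMP response element (TGACGTNA), an HNF1 half-site (GTTAAT), a nuclear receptor half-site (AGGTCA), elements for the TATA-binding protein (TATAAA and TATTTAA) and an NF-Y element (CCAAT). No match overlapped another.
Pck1, chr3:182348322-182348571, plus strand: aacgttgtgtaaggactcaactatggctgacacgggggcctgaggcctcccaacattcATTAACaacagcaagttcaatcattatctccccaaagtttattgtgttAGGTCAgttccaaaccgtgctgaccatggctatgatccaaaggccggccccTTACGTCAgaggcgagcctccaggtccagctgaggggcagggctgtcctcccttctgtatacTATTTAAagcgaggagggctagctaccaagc
Pck2, chr15:32997603-32997852, plus strand: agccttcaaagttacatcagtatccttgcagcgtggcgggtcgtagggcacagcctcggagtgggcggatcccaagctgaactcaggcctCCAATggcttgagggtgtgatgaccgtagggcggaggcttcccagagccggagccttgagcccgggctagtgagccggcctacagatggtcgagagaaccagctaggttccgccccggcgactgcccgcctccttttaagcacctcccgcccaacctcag

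The Pck1 window held 1 match to each of 4 of these motifs. The HNF1 half-site lay at -192 to -187 from the start, the nuclear receptor half-site at -144 to -139, the cAMP response element at -93 to -86 and the TATTTAA element at -31 to -25. Over 33469 RefSeq promoter windows of the same length, 6.45% held the HNF1 half-site, 14.1% the nuclear receptor half-site, 2.88% the cAMP response element and 4.16% the TATTTAA element. The Pck2 window held only the NF-Y element, at -160 to -156, which was in 34.0% of all windows. The Fbp1 window also held only an NF-Y element, at -150 to -146, and the Slc37a4 windows, at 2 annotated starts, held no match. G6pc1 has an HNF1 half-site at -234 to -229, an NF-Y element at -217 to -213, a nuclear receptor half-site at -66 to -61 and a TATAAA element at -41 to -36, the last of which was in 12.9% of windows. Pc and Fbp2 had no entry. These are matches of letters and not measured sites. The motifs were chosen after the promoter letters were seen, so the shares do not measure how unusual these matches are.

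**Figure D1:**
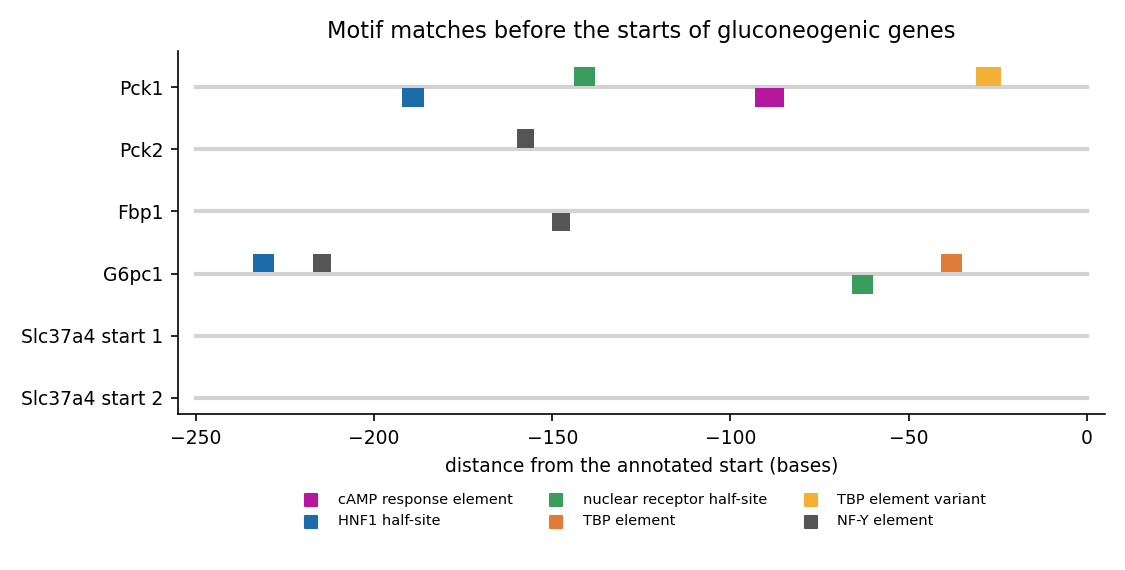
Positions of motif matches in the 250 bases before the annotated start (x axis, bases from the start) of each gluconeogenic gene with a RefSeq promoter entry; blocks above a line are matches on the gene's strand and blocks below it on the opposite strand. Pck1 and G6pc1 each carry 4 matches, Pck2 and Fbp1 carry 1 each and Slc37a4 carries none.

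The values were deposited probe-set signals on a linear scale in arbitrary units, and each array's median over 31042 non-control probe sets lay between 34.9 and 37.4. Of 13 proximal tubule markers, all 13 exceeded the median of every array, among them Lrp2, Slc34a1 and Slc5a2. Of 9 liver markers, 8 lay below the median on all 3 arrays, with a summed signal of 175 to 214 over the list. Thick ascending limb markers lay above the median on all 3 arrays in 5 of 6 cases and endothelial markers in 5 of 5. Distal convoluted tubule markers did so in 2 of 3 cases and collecting duct markers in 3 of 7. Over all named genes, each given by its probe set of highest mean signal as the markers were, 61.0% did so. The summed thick ascending limb signal was 12564, 10490 and 11143 on arrays 1, 2 and 3. The same sums were 888, 804 and 1191 for the distal convoluted tubule and 1103, 1008 and 1135 for the collecting duct. The summed endothelial signal was 677, 928 and 1139 on arrays 1, 2 and 3, and Pecam1 and Plvap of that list ranged 2-fold or more, by 1.45 and 1.10 log2 units. Control probe sets at the 3' end gave 3.28 to 3.85 times the signal of those at the 5' end for beta-actin and 1.40 to 1.52 times for GAPDH.

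Of the 7 gluconeogenic probe sets, 5 exceeded the median of every array, as 45.8% of all non-control probe sets did. These were the probe sets of Pck1, Pc, Fbp1 and Slc37a4 and 1 of the 2 of Pck2. The other Pck2 probe set and that of Fbp2 each lay above the median on 2 arrays and below it on 1. The probe sets of Pck1, Fbp1 and Slc37a4 also lay above the 99th percentile of every array, which was 4485, 3953 and 4219 on arrays 1, 2 and 3.

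**Figure D2:**
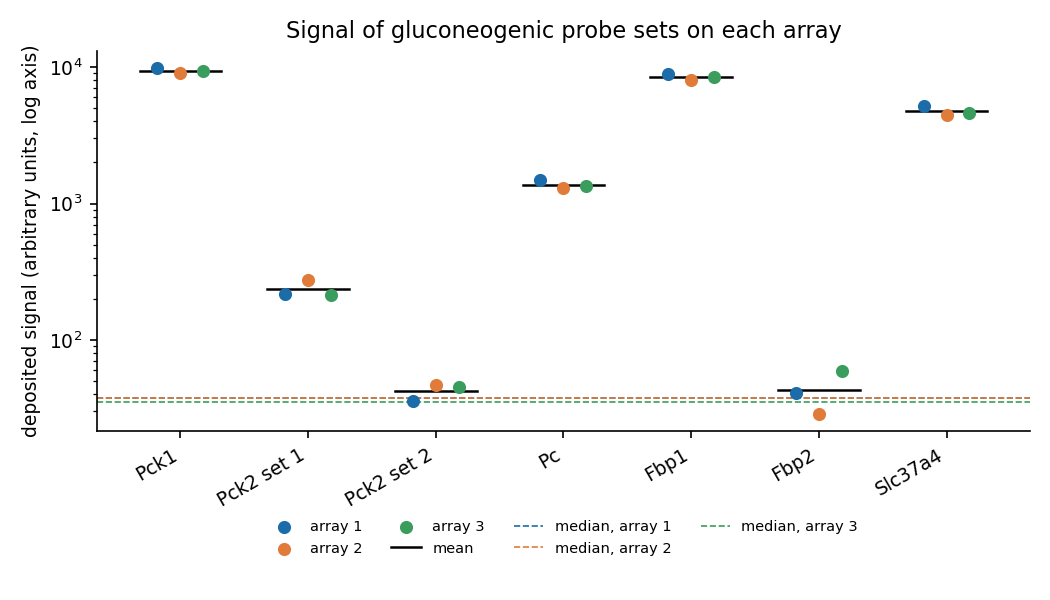
Deposited signal (y axis, arbitrary units, log axis) of each gluconeogenic probe set on arrays 1, 2 and 3 (points), with the mean over the 3 arrays (black bar) and the array medians (dashed lines). Pck1, Pc, Fbp1, Slc37a4 and the first Pck2 probe set stand clear of the medians, and the second Pck2 probe set and Fbp2 straddle them.

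Pyruvate carboxylase, encoded by Pc, opens the pathway from lactate and pyruvate. Its probe set gave 1478, 1308 and 1349 on arrays 1, 2 and 3, a mean of 1378 ± 88.7 (SD, n = 3). The 3 preparations lay close together, with a range of 0.18 log2 units, and every array was far above its median.

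The cytosolic carboxykinase Pck1, long regarded as the controlled step of the pathway, gave 9868, 9059 and 9318, a mean of 9415 ± 413 (SD, n = 3). Its range was 0.13 log2 units. Pck1 is not held in check by an allosteric effector, and control of its amount is known to run through its transcription and the stability of its mRNA.

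Pck2 encodes the mitochondrial form, which makes phosphoenolpyruvate inside mitochondria. It was read by 2 probe sets that disagreed in level. The first gave 218, 276 and 214, a mean of 236 ± 34.7 (SD, n = 3), and the second gave 35.4, 46.3 and 44.9, a mean of 42.2 ± 5.92 (SD, n = 3). The first was above the median everywhere, while the second lay below the median of array 1, which was 37.1, and above those of arrays 2 and 3. Both were lowest, once centred, on array 1, and each ranged over 0.31 log2 units. Which of the 2 gives the better reading of Pck2 cannot be told from the signals.

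Fbp1, the fructose bisphosphatase of liver and kidney, gave 8985, 8069.6 and 8551, a mean of 8535 ± 458 (SD, n = 3). All 3 values were near one another, with a range of 0.16 log2 units. Fbp2, the muscle form of the same enzyme, gave 40.7, 28.6 and 59.0, a mean of 42.8 ± 15.3 (SD, n = 3). Array 3 was highest and array 2 lowest, and array 2 alone was below its median. The highest Fbp2 signal was 2.06 times the lowest. On the scale of log2(signal + 16), centred on each array's median, the range was 0.82, and it was 1.12 with a pseudocount of 1 in place of 16, 0.45 with a pseudocount of 64 and 0.35 without array 3. Of 6 skeletal muscle markers, 4 lay below the median on all 3 arrays and 1 above it on all 3, and the summed signal of the list was 141, 126 and 135 on arrays 1, 2 and 3. Ckm (8.73, 3.68 and 24.1), Myh4 (9.84, 1.46 and 18.4) and Pygm (32.9, 25.5 and 34.9) ran in the same order of arrays as Fbp2. Acta1 (2.65, 7.86 and 2.00) and Tnnt3 (28.2, 39.7 and 13.6) were highest on array 2, and Tnni2 (58.6, 48.1 and 42.3) was highest on array 1. These markers are named because of the Fbp2 values, and their part in those values was not tested.

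Slc37a4 carries glucose 6-phosphate into the endoplasmic reticulum, where the phosphatase acts. Its probe set gave 5168, 4464 and 4619, a mean of 4750.4 ± 370 (SD, n = 3), with a range of 0.22 log2 units. Its partner G6pc1 has no value by the rule, since all 4 probe sets that named it also named Psme3 and Aoc3. Of the paralogues of this last step, G6pc3, a phosphatase found in most tissues, gave 332, 256 and 345. Slc37a1, a phosphate-linked sugar phosphate exchanger, gave 53.4, 60.005 and 75.5. Both lay above the median on all 3 arrays, and G6pc2, Slc37a2 and Slc37a3 had no probe set of their own here.

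The 3 preparations were set side by side on a log scale. Signals were compared as log2(signal + 16), centred on each array's median. None of the 7 probe sets (0 of 7) ranged over 1 log2 unit, a 2-fold difference, or more, and 5.1% of all probe sets did. With a pseudocount of 1 the Fbp2 probe set passed this line, so the count was then 1. Among the 5 that lay above the median on all 3 arrays the count was also 0, where the share over all such probe sets was 1.43%. A count of 0 among so few is near these shares. The median range was 0.37 log2 units over all probe sets, 0.30 over those above the median on all 3 arrays and 0.20 over the 279 above the 99th percentile. The ranges of Pck1 and Fbp1 were below the last of these and that of Slc37a4 was slightly above it.

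**Figure D3:**
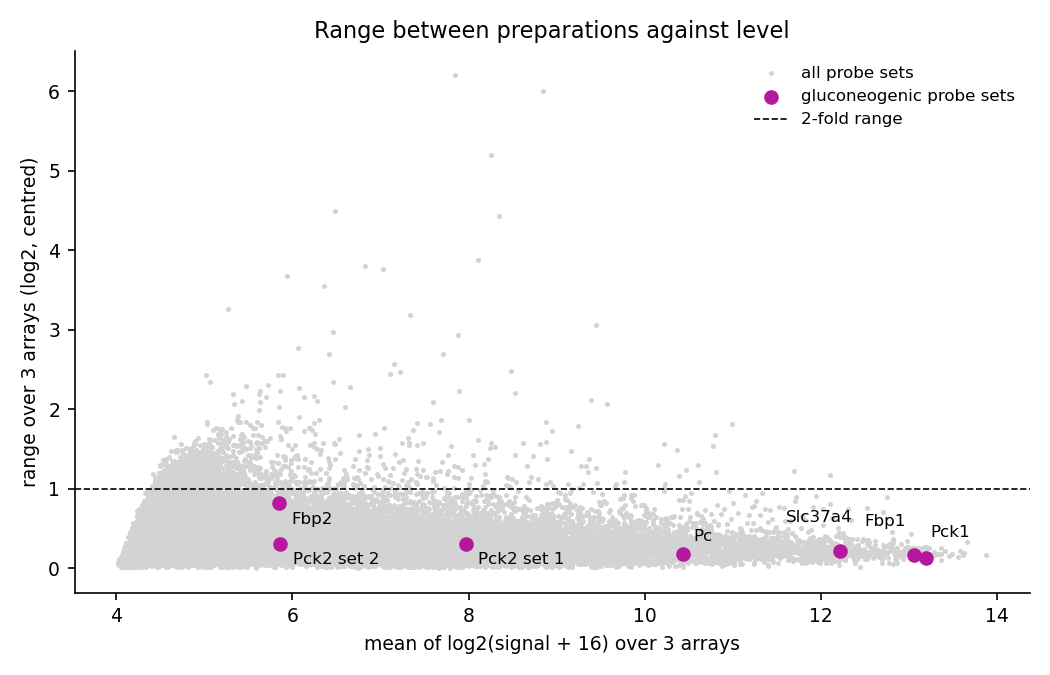
Range over the 3 arrays (y axis, log2 units after centring) against the mean of log2(signal + 16) (x axis) for all non-control probe sets (grey) and the 7 gluconeogenic probe sets (magenta), with a dashed line at a 2-fold range. All 7 lie under the line with the pseudocount of 16, and Fbp2 lies at 0.82.

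Pck1, Pc, Fbp1 and Slc37a4 shared an order of arrays, with the highest centred value on array 1, the next on array 3 and the lowest on array 2. The deviations from the gene's own mean were small. They were 0.05, -0.08 and 0.03 log2 units on arrays 1, 2 and 3 for Pck1. For Pc they were 0.08, -0.10 and 0.02. For Fbp1 they were 0.06, -0.11 and 0.05, and for Slc37a4 0.11, -0.11 and 0.01. The first Pck2 probe set instead deviated by -0.12, 0.20 and -0.08, and was highest on array 2.

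The same order of arrays was seen in 28.8% of all probe sets above the median on all 3 arrays, and 17.2% of them were highest on array 2. The order was noticed in the data, and 4 of 5 is a small count. The 99th percentile and the summed signal of the 13 proximal tubule markers (88944, 79388 and 84444 on arrays 1, 2 and 3) ran in the same order. So did the sums of thick ascending limb (12564, 10490 and 11143), skeletal muscle (141, 126 and 135) and gut epithelium markers (1716, 1416 and 1512). Sums of the other marker lists did not. The order was thus not particular to proximal tubule markers. After quantile normalization, which gives every array the same distribution, 0 of the 5 kept it, against 14.8% of all such probe sets. The alternative was chosen after the order had been seen.

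**Figure D4:**
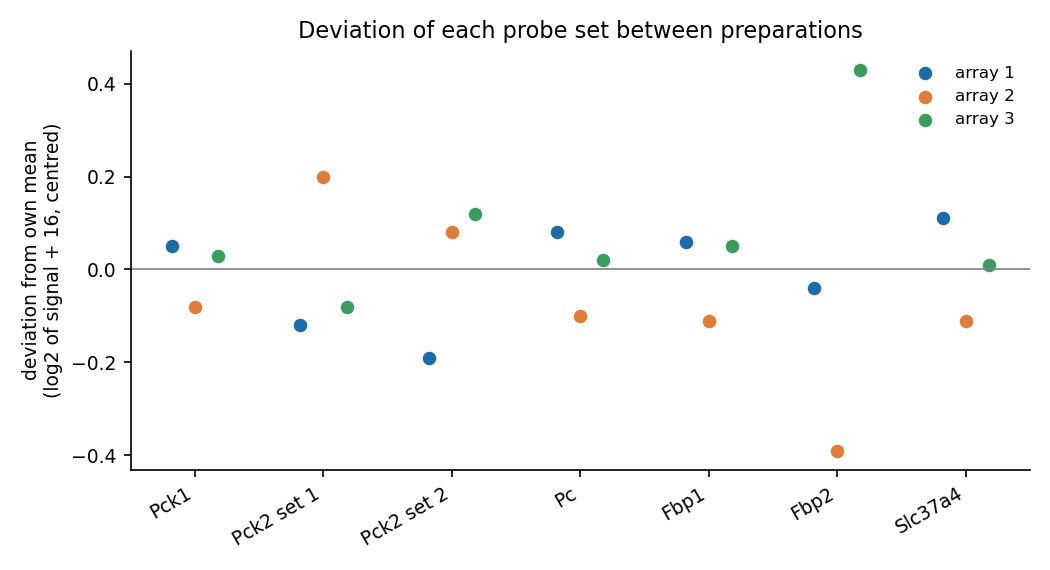
Deviation of each gluconeogenic probe set from its own mean on arrays 1, 2 and 3 (y axis, centred log2 units; points coloured by array). Pck1, Pc, Fbp1 and Slc37a4 lie within 0.11 of their means with array 2 lowest, the first Pck2 probe set is highest on array 2 at 0.20, and Fbp2 spans -0.39 to 0.43.

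Genes around the pathway were then counted in lists, each gene given by its probe set of highest mean signal, with 61.0% of all named genes above the median of every array and 4.46% ranging 2-fold or more. Genes that bring carbon into the pathway lay above the median in 22 of 22 measured cases. They include Ldhb, a lactate dehydrogenase subunit (8718 ± 323, SD, n = 3), and Gpt, an alanine transaminase (51.2 ± 15.2). Enzymes of the reversible steps lay above the median in 6 of 7 cases, with Eno1, an enolase, at 8087 ± 741. The exception was Aldoc, the brain aldolase, which gave 4.16, 30.3 and 5.32 and was the only gene of the list to range 2-fold or more. Gapdh had no probe set naming it alone. Glucose leaves the cell on the basolateral side through the carrier Slc2a2, which gave 2948, 2424 and 2630.2. Slc2a1, a carrier of many other cell types, gave 101, 104 and 94.1.

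The list of glycolytic enzymes at the opposing steps also held the regulatory Pfkfb genes, pyruvate dehydrogenase and its kinases. It had 11 of 15 measured genes above the median on all 3 arrays and 3 below it on all 3. Without the kinases that restrain pyruvate dehydrogenase, the count was 7 of 11, and these kinases were 4 of 4. The genes of the 11 not above the median on all 3 arrays were Hk2, Pfkfb1, Pfkfb2 and Pfkfb3, while Pfkfb4 was above it. At the hexokinase step, Hk1 gave 73.8, 79.4 and 97.4 and Hk2 gave 16.9, 15.6 and 16.7, so that Hk2 was below the median on every array. At the phosphofructokinase step, the muscle-type gene Pfkm gave 375, 384 and 391, the liver-type Pfkl gave 223, 247 and 301, and the platelet-type Pfkp gave 78.1, 96.2 and 97.8. At the pyruvate kinase step, Pklr, which encodes the liver and red cell forms, gave 277, 209 and 305. Hk3 and Pkm had no probe set naming them alone. Pdk2, one of these kinases, gave 3882 ± 238 (SD, n = 3). None of the 15 ranged 2-fold or more.

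Among transcriptional regulators of the pathway, 14 of 17 measured genes lay above the median on all 3 arrays and none ranged 2-fold or more (0 of 17). Hnf4a, a nuclear receptor that keeps liver and proximal tubule genes active, gave 5488 ± 364 (SD, n = 3), and Trib3, an inhibitor of Akt, gave 13.4 ± 6.76. In the list of hormone and acid signalling, 11 of 16 lay above the median and 3 below it on all 3 arrays. Pth1r, the parathyroid hormone receptor, gave 3357 ± 394 (SD, n = 3), and Gcgr, the receptor through which glucagon raises glucose output in liver, gave 2.36, 3.43 and 5.57. Pik3r1, a regulatory subunit of the lipid kinase of insulin signalling, gave 7.80, 86.3 and 16.7 and was the only gene of this list to range 2-fold or more.

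**Figure D5:**
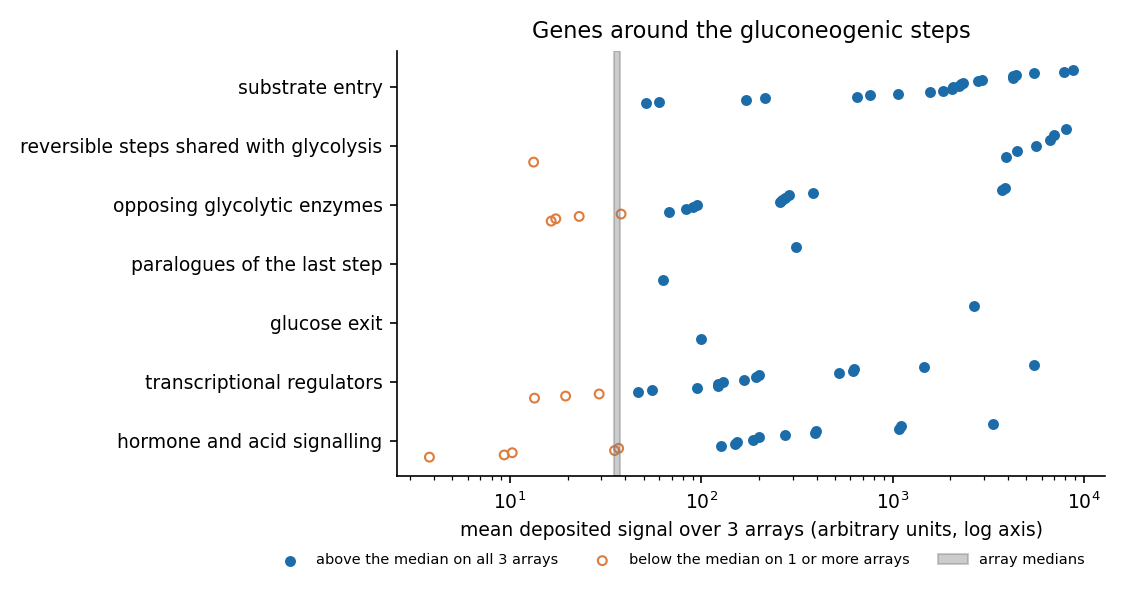
Mean deposited signal over the 3 arrays (x axis, arbitrary units, log axis) of each measured gene in 7 lists around gluconeogenesis (y axis), with filled points for genes above the median of every array, open points for the others and a grey band over the array medians. All 22 genes of substrate entry are filled. In the opposing list, which also holds the Pfkfb genes, pyruvate dehydrogenase and its kinases, 4 of 15 genes are open.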

How the data were processed

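Per the labels' protocols, biotin-labelled cRNA from total RNA of isolated tubules was hybridised to Affymetrix arrays. The authors deposited 1 signal intensity per probe set and array on a linear scale; the summarisation software, background correction and scaling are not given in the sources used here. Of 31099 probe sets, 57 controls were left out. Gene names came from the platform annotation, in which 20826 probe sets named 1 gene, 436 several and 9780 none here; 20758 of the first matched a RefSeq gene (GRCr8) by identifier, which changed 0 symbols.

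Signals were used as deposited for levels, with mean and SD over 3 arrays. Ranges used log2(signal + 16) centred on the array median (Python 3.11.15, numpy 2.4.6, pandas 2.3.3). This step was tested on simulated data built only from probe sets above the median on all 3 arrays. The simulation therefore did not cover signals as low as those of Fbp2 and the second Pck2 probe set. A gene in a list took its probe set of highest mean signal. No detection calls were used. The number of arrays limits precision. Members, lists and tests were chosen with earlier results of these data known, and motifs after the promoter letters were seen. A planned alignment of paralogous proteins was not run, as no protein sequences were used here. The genes named were all members and, from each pathway list, those of highest and lowest mean signal, which picked names and ordered no levels, any that ranged 2-fold above the median, and the isoenzymes, paralogues and glucose carriers. Cell type markers, Aldoc, Pik3r1 and Slc16a1 were named after their values were seen. Genes of like pattern were not sought, since 3 arrays are too few. Alternatives were other percentile lines, pseudocounts, normalizations, probe set rules and leaving out each array.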

Additional observations from a re-analysis of the deposited data

How the results depend on the processing

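Of 95 recomputed values, 81 moved by less than the spread between arrays or, for counts, by no more than 1.5 times, and 14 moved further. The count of gluconeogenic probe sets above the line on every array was 5 with the median and with quantile normalization, 5 to 6 when 1 array was left out, and between 5 and 7 with other percentile lines. Leaving out an array or lowering the line cannot reduce this count, so only the higher line and quantile normalization could have done so. The count with a 2-fold range became 1 with a pseudocount of 1, the probe set being that of Fbp2. It stayed at 0 with a pseudocount of 64, with quantile normalization and without centring. Leaving out an array, or keeping only probe sets above the median, cannot raise this count. Those results of 0 were therefore fixed in advance, and they are among the 81 values above. Other values among the 81 could not move either. Averaging all probe sets changes nothing for a gene with 1, and the rule against name suffixes removed no probe set. A mean without 1 of the 3 arrays cannot shift by as much as the SD. Leaving out the array of middle value does not change a range. The figure of 81 is therefore not a measure of stability. The mean of both Pck2 probe sets was 139, against 236 for the probe set of higher mean. With quantile normalization the log2 range was 0.05 for Pck1, 0.02 for Pc, 0.00 for Fbp1 and 0.09 for Slc37a4. Leaving out 1 array gave ranges of 0.02 to 0.13 for Pck1, 0.04 to 0.31 for Pck2, 0.07 to 0.18 for Pc, 0.01 to 0.16 for Fbp1, 0.35 to 0.82 for Fbp2 and 0.10 to 0.22 for Slc37a4. The lowest came without array 2, except for Fbp2, where it came without array 3. The shared order of arrays held for 4 probe sets with and without centring, for 2 when neighbouring arrays had to differ by 0.05 log2 units (Pc and Slc37a4) and for 0 after quantile normalization; the cause was not tested. All of these order alternatives were chosen after seeing the data. No paired analysis was possible because all 3 arrays form 1 group. Background correction could not be redone from summarised signals.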

Other observations

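The 4 probe sets that named G6pc1 together with Psme3 and Aoc3 exceeded the median of every array, and their signals cannot be given to any 1 of these genes from the annotation. The target accession of 1 of them is listed in RefSeq as a transcript of G6pc1. That probe set gave 5261, 4249 and 6165 on arrays 1, 2 and 3, with a range of 0.61 log2 units. Another gave 2326, 1627 and 2954, with a range of 0.92. The remaining pair gave 408, 341 and 391 with a range of 0.26, and 683, 584 and 617 with a range of 0.23. The first 2 of these were thus highest on array 3, where Pck1, Pc, Fbp1 and Slc37a4 were highest on array 1. The difference between the patterns was not tested.

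Slc16a1, a lactate and pyruvate carrier of the substrate list, ranged over 0.80 log2 units, with 1424, 1693 and 2378 on arrays 1, 2 and 3. The endothelial markers Pecam1 (42.8, 74.2 and 137), Plvap (185, 286 and 396) and Kdr (232, 234 and 341) were also lowest on array 1 and highest on array 3, Emcn (171, 288 and 228) was lowest on array 1 and highest on array 2, and Flt1 (44.9, 45.1 and 36.2) was lowest on array 3. Endothelium was not alone in this. The collecting duct markers Aqp2 (4.25, 4.80 and 32.9), Atp6v1g3 (63.3, 73.0 and 106), Scnn1b, Scnn1g and Slc4a1 were lowest on array 1 and highest on array 3 too. Aqp3 and Aqp4 of that list were lowest on array 2. The part of these markers in the Slc16a1 values was not tested. Slc16a1 was chosen after its values were seen.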
